A study of Mus musculus with 4 samples.

Results

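The following 10 drug-metabolising enzymes, which do not depend on cytochrome P450, were followed in mouse liver: the flavin monooxygenases Fmo1 and Fmo5, the epoxide hydrolases Ephx1 and Ephx2, the alcohol dehydrogenase Adh1, the aldehyde dehydrogenases Aldh1a1, Aldh1a7 and Aldh2, the carbonyl reductase Cbr1 and the xanthine oxidoreductase Xdh. They were chosen by name through the annotation of the MG_U74Av2 array, a short-oligonucleotide array with several probes per transcript (a probe set). All 10 genes were present, on 14 of the 12488 probe sets. The 10 genes were among the 5510 genes tested, and 12 of the 14 probe sets were bright enough to be tested.

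The study compared 2 arrays of control mice (titled WT, replicates 7 and 8) with 2 arrays of hepatic reductase null mice (replicates 7 and 8), with no drug treatment named. The labels give neither strain, sex nor age, and they do not say which deleter or floxed alleles either group carried. Per the labels each experiment used a pool of RNA from 3 animals per genotype, but the control titles name a mouse, so an array may stand for a pool or an animal. The reductase is taken to be NADPH-cytochrome P450 oxidoreductase (Por). In the known line of this name it is deleted by a Cre under the albumin promoter, so that hepatocytes lose it and the other liver cells keep it. Por itself is named by no probe set in the platform annotation, and the deletion was not checked on these arrays.

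Microsomal P450 enzymes need electrons from the reductase, whereas the oxidoreductases described here exchange electrons directly with NADPH, NAD+ or oxygen, and the hydrolases need none. Flavin monooxygenases oxygenate nitrogen and sulfur atoms of drugs, and epoxide hydrolases open the reactive epoxides that P450s make. Dehydrogenases and carbonyl reductases interconvert alcohols, aldehydes, ketones and acids. The question here was whether transcripts of these routes were higher in liver that lacks the reductase.

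The paralogues Aldh1a1 and Aldh1a7 were both higher on the null arrays, and they lie next to each other on mouse chromosome 19, with 0 protein-coding genes between them. Their start regions are shown because they are largely the same sequence. The 150 bases before the start of each gene, from RefSeq on GRCm38.p6, are at chr19:20601818-20601967 (plus strand) for Aldh1a1 and at chr19:20727557-20727706 (minus strand) for Aldh1a7, and capitals mark the longest run that both share:
Aldh1a1: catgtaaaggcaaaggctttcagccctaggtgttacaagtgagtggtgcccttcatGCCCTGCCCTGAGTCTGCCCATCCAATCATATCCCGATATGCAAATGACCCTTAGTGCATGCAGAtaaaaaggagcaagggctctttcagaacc
Aldh1a7: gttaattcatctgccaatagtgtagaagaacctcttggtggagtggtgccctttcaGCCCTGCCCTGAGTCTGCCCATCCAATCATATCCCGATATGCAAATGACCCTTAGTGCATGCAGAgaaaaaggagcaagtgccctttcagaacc

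The shared run is 65 bases long and begins 94 bases before the start in both genes. Without gaps, 108 of the 150 positions were identical (72%). No other pair among the 7 windows of the 6 genes with a RefSeq window shared a run longer than 11 bases, and the second annotated start of Aldh1a1 shared at most 8 bases with Aldh1a7. The run holds a CCAAT box (letters CCAAT, 72 to 68 bases before the start), which 33.8% of all 32851 RefSeq windows of 250 bases hold on either strand. It also holds the octamer ATGCAAAT (56 to 49 bases before the start), found in 1.6% of those windows. Outside the run, Aldh1a7 had another CCAAT box (137 to 133 bases before the start) that Aldh1a1 lacked. Aldh1a7 also had a match to the TATA box (letters TATAAA, 244 to 239 bases before the start), found in 12.4% of windows. This match lay outside the printed 150 bases, and Aldh1a1 had no match to these letters. Ephx1 held them at 214 to 209 and Fmo5, on the opposite strand, at 195 to 190 bases before the start. In the same 250 bases of Aldh1a1 and Aldh1a7 there was no match to TGACNNNGC (core of the antioxidant response element), GCGTG (core of the xenobiotic response element), GGGCGG (GC box) or the DR4 direct repeat on either strand. Of all windows 10.2%, 28.2%, 32.7% and 0.0152% hold these, in that order, so most windows lack each of them. Cbr1 held GCGTG at 7 to 3 and, on the opposite strand, at 43 to 39 bases before its start. A match to such letters is a description and no evidence of binding, and a missing match says nothing on binding either.

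The arrays were scaled alike, with a median signal of 26.1 to 28.4. Hepatocyte markers had a summed signal of 44830.6 and 45840.6 in control and 40398.6 and 42518.8 in null liver over 10 genes, of which 7 of 10 had a negative change and 0 passed in limma. Periportal hepatocyte markers summed to 17902.1 and 18270.7 in control and 15635.1 and 14338 in null liver (8 genes, 6 negative changes, 1 called lower, Hal). Pericentral markers summed to 14814.7 and 15286.4 against 15890.9 and 15854.6 (7 genes, 4 negative changes, 1 called higher, Oat). Kupffer cell and macrophage markers summed to 2491.9 and 2502.8 in control and 3113.9 and 3363.4 in null liver (14 genes; of 13 tested, 11 positive changes and 1 called higher). Stellate cell and fibroblast markers summed to 1236.8 and 1321.5 against 1623 and 1926.4 (11 genes; of 10 tested, 9 positive changes and 0 called). Erythroid markers summed to 7639.8 and 7237.2 against 6118.8 and 5824.3 (4 genes, of 2 tested 2 negative changes and 0 called), while the sums of B and plasma cell markers overlapped between the genotypes. Endothelial markers summed to 1096.9 and 1132.3 in control and 1319 and 1221.7 in null liver (of 9 tested, 5 positive and 4 negative changes, 0 called). Dimmer sums were also higher on both null arrays: neutrophil (79.2 and 72.6 against 88.2 and 141.2), T and NK cell (54.5 and 71.9 against 115.3 and 89.9) and cholangiocyte (24.8 and 42 against 45.1 and 50.7). Of these lists only 3, 1 and 0 markers were bright enough to be tested. No macrophage, stellate or erythroid marker was at the floor on all arrays. Pancreatic acinar markers summed to 2952.3 on null replicate 7 and to between 252.8 and 365.1 on the other arrays. The part of these cells in the values of the 10 genes was not tested. Without null replicate 7, the log2 changes of Ephx1, Aldh1a1, Aldh1a7 and Cbr1 were 0.46, 0.50, 0.86 and 0.90. In whole liver, fewer cells of a type and less RNA per cell cannot be told apart.

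Of the 10 genes, 4 were higher on both null arrays than on both control arrays (Ephx1, Aldh1a1, Aldh1a7 and Cbr1), 2 were lower on both (Ephx2 and Adh1, the latter by a margin of 0.0038 on the log2 scale), and 4 overlapped. None of the 10 passed the threshold, an adjusted p under 0.05 in limma over 7241 probe sets: 0 were called higher and 0 lower. Of the 5510 genes tested 0.399% passed, 0.309% higher and 0.0907% lower. At an unadjusted p under 0.05 the same fit had 4 of the 10 higher (6.46% of all genes) and 1 lower (6.93% of all genes). Null and control arrays did not overlap for 6 of the 10 genes, against 44.9% of all genes, with 20.9% of all genes higher and 24% lower. The 10 genes were chosen with earlier results of these data known, so they are no independent list to set against these shares. The median log2 change of the 10 genes was 0.041, with 5 positive and 5 negative changes, and that of all genes tested was -0.010. Their median SE was 0.12 on the log2 scale, against 0.21 over all genes tested. Each of the 10 genes was brighter than most genes tested, from 68.1% of them for Cbr1 to 99.4% for Aldh1a1. The shares over all genes were not matched for signal. With 2 arrays per genotype the smallest two-sided p of an exact permutation test is 0.333, so the comparison rests on the variance that limma shares across probe sets. The arrays of a genotype may differ only technically, and the p-values measure no more than the spread between them.

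**Figure D1:**
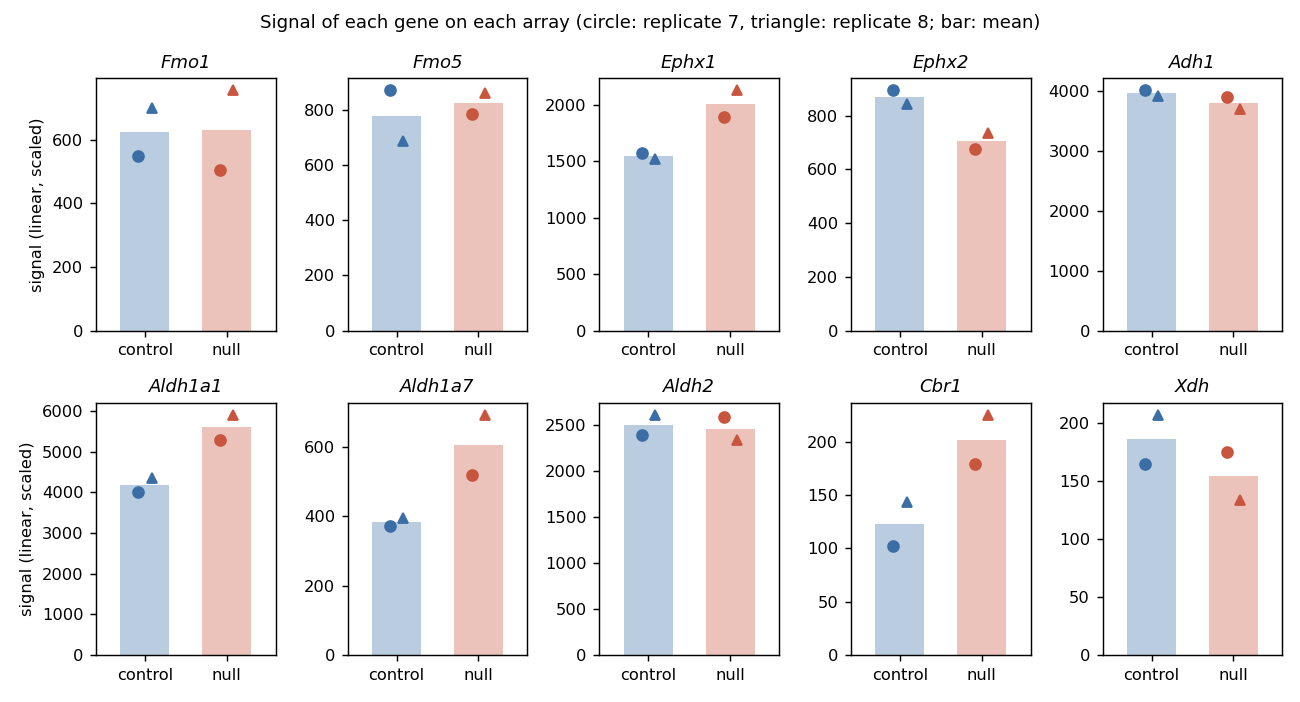
Deposited signal (linear scale, vertical axis from 0) of the brightest probe set of each of the 10 genes on the 2 control and 2 null arrays. Circles are replicate 7, triangles replicate 8, and bars the mean of each genotype. Ephx1, Aldh1a1, Aldh1a7 and Cbr1 have both null points above both control points, whereas the points of Fmo1, Fmo5, Aldh2 and Xdh overlap.

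The flavin monooxygenases lay at about the same signal in both genotypes. Fmo1, which oxygenates drug amines and sulfides, had signals of 548.3 and 698.4 on control replicates 7 and 8, and of 503.2 and 754.2 on null replicates 7 and 8. The lowest and the highest of these signals were both on null arrays, so the genotypes overlapped. Its log2 change was -0.0065 ± 0.21 (SE, 95% interval -0.51 to 0.49), and changes of up to 1.41-fold in either direction lay inside that interval. Fmo5, a family member known to insert oxygen next to ketones, had 869 and 687.5 in control liver and 784.7 and 860 in null liver. Both null signals lay between the control signals. The log2 change of Fmo5 was 0.088 ± 0.14 (SE, 95% interval -0.23 to 0.41). A second probe set of Fmo5 (of the _f_at kind, which can bind related transcripts) gave 19.4, 5.8, 1.2 and 26.1 on the 4 arrays in the same order and was too dim to be tested.

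The epoxide hydrolases lay on opposite sides of 0. Ephx1, the microsomal hydrolase that turns epoxides of drugs and pollutants into diols, had signals of 1573.6 and 1523 in control liver and 1897.6 and 2130.2 in null liver. The lower null signal stood above the higher control signal by 0.27 on the log2 scale, more than the arrays of either genotype differed among themselves (0.047 for control and 0.17 for null). Ephx1 was 1.30-fold higher in null liver (95% interval 1.12 to 1.51, log2 change 0.38 ± 0.090 SE), with an adjusted p of 0.163 in limma. Ephx2, the soluble hydrolase that degrades epoxides of arachidonic acid and other fatty acids, had 893.9 and 843 in control liver and 674.8 and 734.5 in null liver. Both null signals were below both control signals, by a margin of 0.20 on the log2 scale. The log2 change of Ephx2 was -0.30 ± 0.10 (SE, 95% interval -0.54 to -0.06), which is 1.23-fold lower, with an adjusted p of 0.296 in limma. The changes of the 2 hydrolases had 95% intervals that did not meet, one above 0 and the other below it. These intervals are not adjusted for the number of probe sets tested, and neither gene passed the threshold. The difference between them was not tested.

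The ethanol-handling enzymes lay close to their control level. Adh1, the main hepatic alcohol dehydrogenase for ethanol and retinol, had signals of 4004 and 3911 in control liver and 3900.6 and 3687.8 in null liver. Its log2 change of -0.061 ± 0.068 (SE, 95% interval -0.22 to 0.10) leaves room for a fall to 0.856 of the control level and for a rise to 1.07 of it. Aldh2, the mitochondrial enzyme that clears acetaldehyde, had 2386 and 2606.8 in control liver against 2580.3 and 2330.7 in null liver on its brightest probe set. The genotypes overlapped there and on a second probe set, with log2 changes of -0.024 ± 0.089 and -0.023 ± 0.094 (SE). Another Aldh2 probe set, of the _f_at kind, lay lower on both null arrays, at 979.9 and 885.6 against 1039.3 and 1009.1, with a log2 change of -0.14 ± 0.098 (SE) that did not pass (adjusted p = 0.615 in limma).

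The cytosolic Aldh1a enzymes were higher on both null arrays. Aldh1a1, which oxidises retinaldehyde to retinoic acid and many drug aldehydes, had signals of 4015.6 and 4358.3 in control liver and of 5296.3 and 5904.4 in null liver. The margin between the genotypes was 0.28 on the log2 scale, while the control arrays differed by 0.12 and the null arrays by 0.16. Aldh1a1 was 1.34-fold higher in null liver (95% interval 1.17 to 1.53, log2 change 0.42 ± 0.081 SE). This was the smallest p of the 10 genes, 0.00142 before and 0.0997 after adjustment in limma, rank 103 of the 7241 probe sets. A second Aldh1a1 probe set was too dim to be tested, at 12.5, 17.4, 21.5 and 7.3.

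Aldh1a7, a close relative known for its induction by phenobarbital, had signals of 371.7 and 395 in control liver and of 519.8 and 693.9 in null liver. Null replicate 8 was the highest array. The arrays of the null genotype differed by 0.42 on the log2 scale, slightly more than the margin of 0.40 that separated the genotypes. Aldh1a7 was 1.57-fold higher (95% interval 1.21 to 2.03, log2 change 0.65 ± 0.16 SE), with an adjusted p of 0.164 in limma. The intervals of Aldh1a1 and Aldh1a7 overlapped widely. How far either probe set binds the transcript of the other gene was not tested, since probe sequences were not used here.

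Cbr1, an NADPH-dependent reductase of quinones, prostaglandins and ketone drugs, had the largest positive change of the 10 genes. Its signals were 102 and 143.6 in control liver and 178.7 and 225.1 in null liver. The margin between genotypes was 0.32 on the log2 scale, and the control arrays alone differed by 0.49. Cbr1 was 1.66-fold higher (95% interval 1.16 to 2.36, log2 change 0.73 ± 0.21 SE), with an adjusted p of 0.247 in limma. Leaving out control replicate 7 lowered the log2 change to 0.48, and leaving out control replicate 8 raised it to 0.98.

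Xdh, the molybdenum enzyme that oxidises hypoxanthine and xanthine to uric acid and also acts on purine drugs, had 165.1 and 207.2 in control liver and 175.5 and 134 in null liver. The genotypes overlapped, with the lowest signal on null replicate 8. Its log2 change was -0.27 ± 0.20 (SE, 95% interval -0.74 to 0.20). Without null replicate 8 the value was -0.076, and without null replicate 7 it was -0.46.

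**Figure D2:**
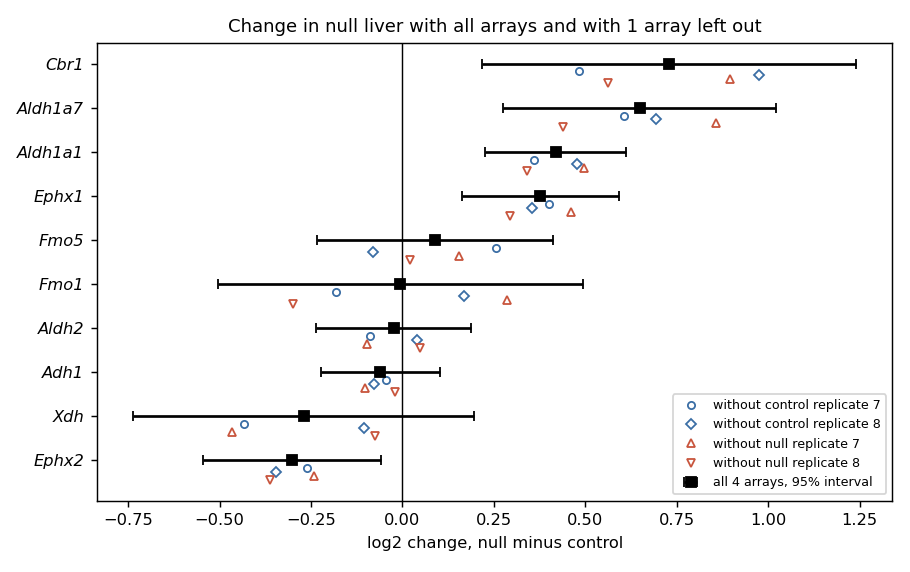
Log2 change (null minus control, horizontal axis) of each of the 10 genes with all 4 arrays (squares, bars are 95% intervals from limma) and with 1 array left out (open symbols, blue for a control and red for a null array). Ephx1, Aldh1a1, Aldh1a7 and Cbr1 stay above 0 and Ephx2, Adh1 and Xdh below 0 in each case, while Fmo1, Fmo5 and Aldh2 cross 0. Among those that keep their side only Xdh could have crossed, because the arrays of the others do not overlap between genotypes. The intervals are not adjusted for the number of probe sets tested.

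Sign was kept by 7 of the 10 genes whichever array was left out. For Ephx1, Aldh1a1, Aldh1a7, Cbr1, Ephx2 and Adh1 this was fixed in advance, because their null and control arrays did not overlap. Of the 7, only Xdh could have turned. Ephx1 ranged from 0.29 to 0.46, Aldh1a1 from 0.34 to 0.50, Aldh1a7 from 0.44 to 0.86 and Cbr1 from 0.48 to 0.98 on the log2 scale. Ephx2 ranged from -0.36 to -0.24. For each of the 4 higher genes the smallest value came without null replicate 8 or, for Cbr1, without control replicate 7. Null replicate 8 was the brighter null array for all 4, as it was for Fmo1, Fmo5 and Ephx2.

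For scale, 3 genes known for induction by drugs through the receptors CAR and PXR passed the threshold in the same fit. They are no full list of such genes. With a floor at the 50th percentile, with no filter or with no intensity trend, 0 probe sets passed, these 3 genes included. Gstm3 was 4.32-fold and Cyp3a11 1.75-fold higher in null liver (adjusted p = 0.00437 and 0.0210 in limma). Cyp2b10 had 3.1 and 19.3 in control against 265.8 and 638.3 in null liver (adjusted p = 0.0253 in limma), and no fold is given because 1 control signal lay below the floor of 7.1. The point estimates of Aldh1a7 and Cbr1 came near that of Cyp3a11, whose SE was 0.079 on the log2 scale against 0.16 and 0.21.

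**Figure D3:**
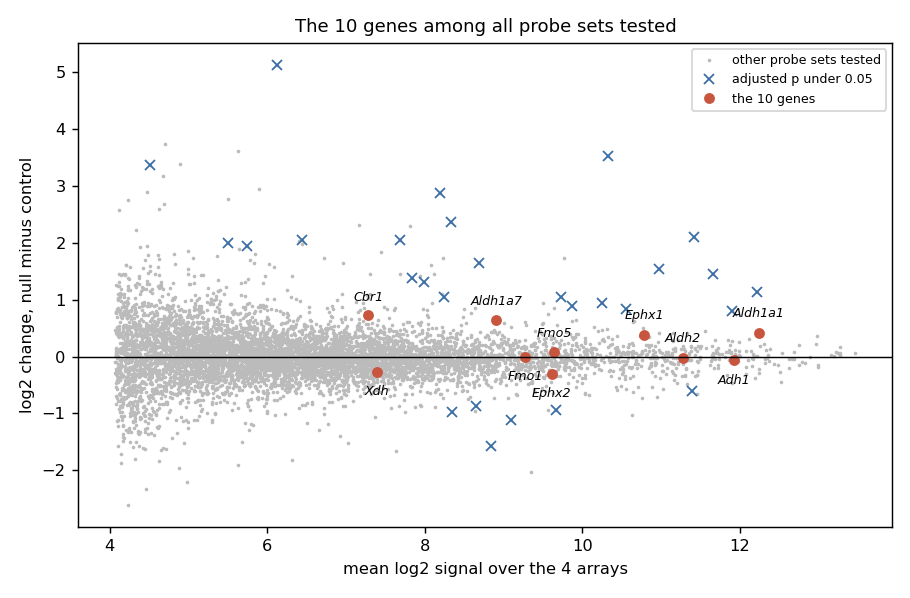
Log2 change (null minus control) against mean log2 signal over the 4 arrays for the 7241 probe sets tested. Crosses are the 28 probe sets past the threshold and filled circles the 10 genes. The 10 genes lie between -0.30 and 0.73, inside the range of the probe sets that did not pass.

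The 10 genes were set beside their enzyme classes, 99 further listed genes of which 47 were on the array and 40 were tested. These classes too were chosen with earlier results of these data known. None of the 40 passed in limma: 0 were called higher and 0 lower, with 5 higher and 5 lower at an unadjusted p under 0.05 (6.46% and 6.93% of all genes). Null and control did not overlap for 23 of the 40 (44.9% of all genes), with 11 higher and 12 lower (20.9% and 24% of all genes), and their median log2 change was -0.046. Beside Aldh1a1, Aldh1a7 and Aldh2, 3 other aldehyde dehydrogenases were tested, with a median of 0.085, and 1 of them lay above the control range on both null arrays. This was Aldh3a2, the microsomal enzyme for fatty aldehydes, with signals of 461.8 and 588.4 in control and 1012 and 985.7 in null liver. Its log2 change of 0.94 ± 0.13 (SE) just missed the threshold (adjusted p = 0.0551 in limma), and Aldh7a1 and Aldh9a1 were at 0.085 and -0.028.

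Around Adh1, the other alcohol dehydrogenases were at -0.47 ± 0.15 (Adh4), -0.18 ± 0.25 (Adh7) and 0.0026 ± 0.081 (Adh5, log2 change ± SE). A second Adh4 probe set was lower on both null arrays, at -0.25 ± 0.16, and so was a second Adh5 probe set, at -0.20 ± 0.083. Neither passed. Around Cbr1, the 10 other carbonyl and aldo-keto reductases tested had a median of -0.069, with 2 positive and 8 negative changes. Among them Akr1a1 was at 0.27, Dhrs7 at 0.50, Akr1c13 at -0.38 and Dhrs1 at -0.36. Around Xdh, the related aldehyde oxidase Aox1 was at -0.18, and of the genes that make or place its molybdenum cofactor Mocos was at 0.44 (-0.14 on a second probe set), Gphn at -0.25 and Mocs2 at -0.19. The quinone reductase Nqo1 was at 0.84 ± 0.34 and the monoamine oxidase Maoa at 0.33 ± 0.20.

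Of 11 esterases 0 passed, with a median of 0.023 and both directions represented. Ces1c, a secreted carboxylesterase, was at -0.47 ± 0.088 (adjusted p = 0.0965 in limma), Aadac at -0.38, Cmbl at 0.35 and Ces1g at 0.39. Of 6 other genes of P450 electron transfer 0 passed either (median 0.029). Fdx1, the mitochondrial ferredoxin, was at 0.17, cytochrome b5 (Cyb5a) at 0.11, its outer mitochondrial form Cyb5b at -0.20 and Cyb5r4 at -0.25. A second probe set of Cyb5b was at 0.55.

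**Figure D4:**
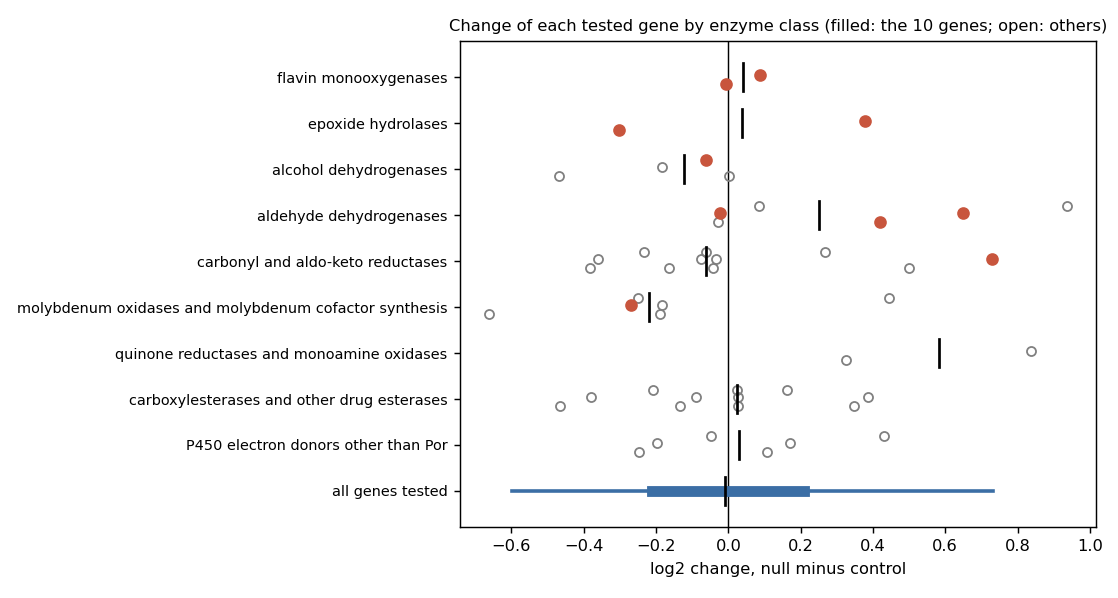
Log2 change (null minus control, horizontal axis) of each tested gene by enzyme class. Filled circles are the 10 genes and open circles other listed genes. Black ticks are the median of each class with the 10 genes included, whereas the text gives medians without them. The bottom row gives all 5510 genes tested: the thin bar spans the 5th to 95th percentile (-0.60 to 0.73), the thick bar the 25th to 75th (-0.21 to 0.21).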

How the data were processed

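Per the labels, the authors used GCOS to obtain a linear intensity per probe set from its matched and mismatched probes, and scaled each chip by its total fluorescence. The GCOS version is not given in the sources used here. Probe sets were named through the platform annotation and GRCm38.p6 gene identifiers. The 66 control probe sets were left out, signals were floored at 7.1 (25th percentile) and converted to log2, and the 7241 probe sets with a mean above log2 of 16.8 (40th percentile) were tested. Control and null arrays, 2 each, were compared in R 4.3.3 by limma 3.58.1 (two-sided, eBayes with a trend on intensity), with Benjamini-Hochberg adjustment of p-values across all probe sets tested. The brightest tested probe set stood for a gene. Low signals are mostly background, which understates changes of dim genes, and the number of arrays limits the precision.

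The 10 genes, enzyme classes and markers were chosen with earlier results of these data known. Of each class, genes past the threshold and up to 4 others of smallest p were named, beside Cyp2b10, Cyp3a11 and Gstm3. Alternatives changed the scaling, floor, log scale, filter, variance model, replicate block, probe set choice and arrays. Array replicates 7 and 8 were not treated as pairs.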

Additional observations from a re-analysis of the deposited data

How the results depend on the processing

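Of the 10 genes, 0 passed in limma under any of the 15 alternatives. Adjusted p ranged over them from 0.0638 to 0.532 for Aldh1a1, 0.0953 to 0.565 for Aldh1a7, 0.114 to 0.552 for Ephx1, 0.147 to 0.707 for Cbr1 and 0.200 to 0.775 for Ephx2. Of 150 values of the 10 genes, 143 kept their sign and their side of the threshold. Where null and control arrays did not overlap, leaving out an array could not turn the sign. The 7 that turned sign were Fmo1 at 0.0055 with quantile normalization, 0.17 without control replicate 8 and 0.29 without null replicate 7; Aldh2 at 0.0038 with quantile normalization, 0.040 without control replicate 8 and 0.049 without null replicate 8; and Fmo5 at -0.081 without control replicate 8. Leaving out an array gave -0.30 to 0.29 for Fmo1, -0.081 to 0.26 for Fmo5 and -0.098 to 0.049 for Aldh2. Main counts over all probe sets were 22 higher and 6 lower. Both were 0 with a floor at the 50th percentile, with no filter and with no intensity trend, where limma gave 955, 1208 and 747 probe sets at an unadjusted p under 0.05. Lower counts were 12 with quantile normalization, 15 with a filter at the 60th percentile and 13 with robust eBayes. Without 1 array there were 10 to 13 higher and 0 to 4 lower. With the replicate block, 37 were higher and 15 lower; same-numbered arrays did not deviate together (correlation -0.030 over probe sets), and the labels do not say that a number marks a shared batch. Of the listed genes, 1 passed as higher (Aldh3a2) with quantile normalization, the filter at the 60th percentile, robust eBayes and the replicate block. The causes were not tested.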

Other observations

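Cbr3, a carbonyl reductase that neighbours Cbr1 with 0 protein-coding genes between them, was too dim to be tested. It lay at 9.1 and 3.8 in control liver and at 14.8 and 74.1 on null replicates 7 and 8. Butyrylcholinesterase (Bche), an esterase of liver and plasma, was likewise untested, at 5.1 and 15 in control and 19.3 and 26.2 in null liver. Cbr3 and Bche were named after their values were seen. Among the other untested listed genes, the brighter probe set of Aldh3a1 lay at 30.5 and 18.6 in control and at 5.6 and 19.4 in null liver. That of Aldh18a1 lay at 12.3 and 12.1 in control and at 10.5 and 4.2 in null liver. Aldh1a2, Aldh1a3 and Cbr2 were also too dim to be tested.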
